A study of Mus musculus with 3 samples.

Results

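Type I interferon-stimulated genes were followed in single-cell profiles of a mouse glioblastoma driven by human EGFR. The list holds 40 genes known as typical targets of type I interferon, and was chosen with earlier results of these data known. All 40 were found by symbol among the 50262 rows of the count table, and each had at least 1 UMI (unique molecular identifier, one captured transcript molecule) in the cells kept. By role, 4 members belong to the IFIT family, 3 to the ISG15 system, 5 to the OAS family, 12 are other virus-restricting effectors, 5 are cytosolic nucleic acid sensors, 3 are transcription factors of the pathway and 8 have other or less settled roles.

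The study asked how the immune compartment of glioblastoma is composed and how it shifts as tumors grow. Tumors were started in adult mice by stereotactic injection of a Cre lentivirus into the striatum, and whole brains without cerebellum were dissociated after perfusion. The mice carried a conditional human EGFR WT transgene, Cdkn2a-/- and a conditional luciferase reporter, among other alleles, on a mixed background of several inbred strains, and every sample shares these alleles. Viable cells were sorted into CD45+ and CD45- fractions, CD45 being the surface protein of leukocytes, and profiled by inDrop, a droplet method. There was 1 sample at each of 3 tumor stages, early, medium and large (called late here), each in both sorts, so that stage and tumor cannot be told apart. Per the study's methods, early samples were pooled from more than 1 animal and late samples were single tumors. Whether the medium sample was pooled is not given in the sources used here. Each sample is called a tumor below, pooled or not. Normal brain was not analysed here.

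Type I interferons, interferon-beta and the interferon-alphas, are released by cells that sense viral or misplaced nucleic acid. They bind the receptor IFNAR1 and IFNAR2, whose kinases JAK1 and TYK2 phosphorylate STAT proteins, STAT2 among them. STAT2 acts with IRF9 in the complex ISGF3, which binds interferon-stimulated response elements in target promoters. In brain, microglia are known to hold a small interferon-responsive subset, and many targets also respond to interferon-gamma.

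The core of the response element is a tandem GAAA repeat, and promoters of members of several roles are shown so that this shared letter pattern can be seen. Each line gives RefSeq sequence of build GRCm38.p6 upstream of the annotated start, with matches to GAAANNGAAA on either strand in capitals and overlapping matches run together.
Isg15, chr4:156200819-156201008, minus strand: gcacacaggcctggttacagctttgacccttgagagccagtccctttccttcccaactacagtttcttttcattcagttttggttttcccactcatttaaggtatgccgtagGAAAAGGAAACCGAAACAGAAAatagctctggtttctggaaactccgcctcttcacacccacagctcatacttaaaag
Ifit1, chr19:34640699-34640888, plus strand: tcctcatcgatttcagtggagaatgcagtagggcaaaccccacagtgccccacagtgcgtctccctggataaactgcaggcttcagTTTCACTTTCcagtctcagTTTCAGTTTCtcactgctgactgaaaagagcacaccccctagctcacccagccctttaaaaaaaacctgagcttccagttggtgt
Ifit3, chr19:34583339-34583528, plus strand: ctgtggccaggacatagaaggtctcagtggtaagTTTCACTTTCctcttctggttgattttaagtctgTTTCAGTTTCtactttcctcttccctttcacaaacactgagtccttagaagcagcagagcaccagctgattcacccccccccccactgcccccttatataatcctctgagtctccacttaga
Ifit3b, chr19:34607767-34607956, plus strand: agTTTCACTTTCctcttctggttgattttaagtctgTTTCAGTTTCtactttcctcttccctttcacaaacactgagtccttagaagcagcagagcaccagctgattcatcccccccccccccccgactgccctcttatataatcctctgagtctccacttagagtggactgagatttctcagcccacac
Rsad2, chr12:26456453-26456642, minus strand: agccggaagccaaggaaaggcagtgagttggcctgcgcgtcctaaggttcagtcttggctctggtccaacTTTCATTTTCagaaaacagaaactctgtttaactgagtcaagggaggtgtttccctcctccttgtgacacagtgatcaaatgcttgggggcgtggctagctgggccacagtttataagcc
Bst2, chr8:71537473-71537662, minus strand: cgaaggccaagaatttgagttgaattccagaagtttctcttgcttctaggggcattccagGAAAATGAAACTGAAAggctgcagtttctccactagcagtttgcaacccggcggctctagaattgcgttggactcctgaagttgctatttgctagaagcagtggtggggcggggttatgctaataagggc
Lgals3bp, chr11:118401960-118402149, minus strand: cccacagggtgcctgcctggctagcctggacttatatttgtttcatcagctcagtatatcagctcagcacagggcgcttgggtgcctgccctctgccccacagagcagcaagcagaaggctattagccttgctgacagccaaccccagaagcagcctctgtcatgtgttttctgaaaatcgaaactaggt

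Isg15 held 3 overlapping matches that began 66 to 78 bases before the start, and Bst2 held 2 overlapping ones at 124 and 130 bases. Ifit1, Ifit3 and Ifit3b held 2 each, all spaced apart, and Rsad2 held 1 at 120 bases. Lgals3bp, the member with the most transcripts here, held no match in the printed stretch. The Ifit3 and Ifit3b stretches were near copies, with 128 of 158 aligned bases identical (81.0%) at a shift of 32 bases. A promoter window of 250 bases before to 50 after the start was on record for 30 members, of which 17 (56.7%) held the pattern, beside 1079 of 27025 genes (3.99%). The members with no window were Parp14, Oas2, Usp18, Dhx58, Zbp1, Mx2, Rtp4, Ifi204, Mx1 and Ifi27l2a. A match describes the letters and does not show that a factor binds.

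After filters, 17781 of 20811 deposited cells were kept. The 6 combinations of sort and tumor held 1603 to 5091 cells, 5381839 to 10808099 UMIs, and a median of 1964 to 3078.5 UMIs per cell. The sort was as labelled: Ptprc, which encodes CD45, was at 227 to 250 CPM (UMIs per 1000000 UMIs of the sample or class, not divided by gene length, which compares samples and not genes) in the CD45+ sorts and at 3.59 to 15.9 in the CD45- sorts. Microglia-like cells made up 81.2%, 38.3% and 58.9% of the CD45+ sort in the order early, medium, late, and 9.14%, 6.30% and 1.32% of the CD45- sort. Of the cells kept, 2104 (11.8%) carried a barcode that also occurred in another library of the same sort and tumor, and results that rest on cells were therefore also computed with such barcodes counted once. Ifit1, Ifit3, Ifit3b, Oas1a, Ifi204, Ifi207, Trim30a, Slfn8, Mx1 and Mx2 have close relatives in the mouse genome between which reads can be split, so their single values are uncertain.

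The 40 members together were higher in CD45+ than in CD45- cells of every tumor, and both sorts were highest in the medium tumor. The summed level was 951, 2940 and 946 CPM in the CD45+ sorts of the early, medium and late tumors. In the CD45- sorts it was 492, 1159 and 420. The medium CD45- sort thus lay above the early and late CD45+ sorts, so the ranges of the sorts overlapped. Within each tumor the CD45+ level was 1.93, 2.54 and 2.25 times the CD45- level, a mean log2 ratio of 1.15 ± 0.20 (SD, n = 3 tumors). An exact permutation test over 3 pairs cannot pass 0.05, so no p is given. The 3 members with the highest mean level, Lgals3bp, Ifitm3 and Ifi27l2a, carried much of the sum. Without them the levels were 663, 1757 and 600 in CD45+ and 396, 903 and 313 in CD45- cells, and the mean log2 ratio was 0.88. The 3 sequencing runs, each holding libraries of all tumors, gave 2743 to 3034 CPM for the medium CD45+ sort and 821 to 1186 for the early and late ones.

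**Figure D1:**
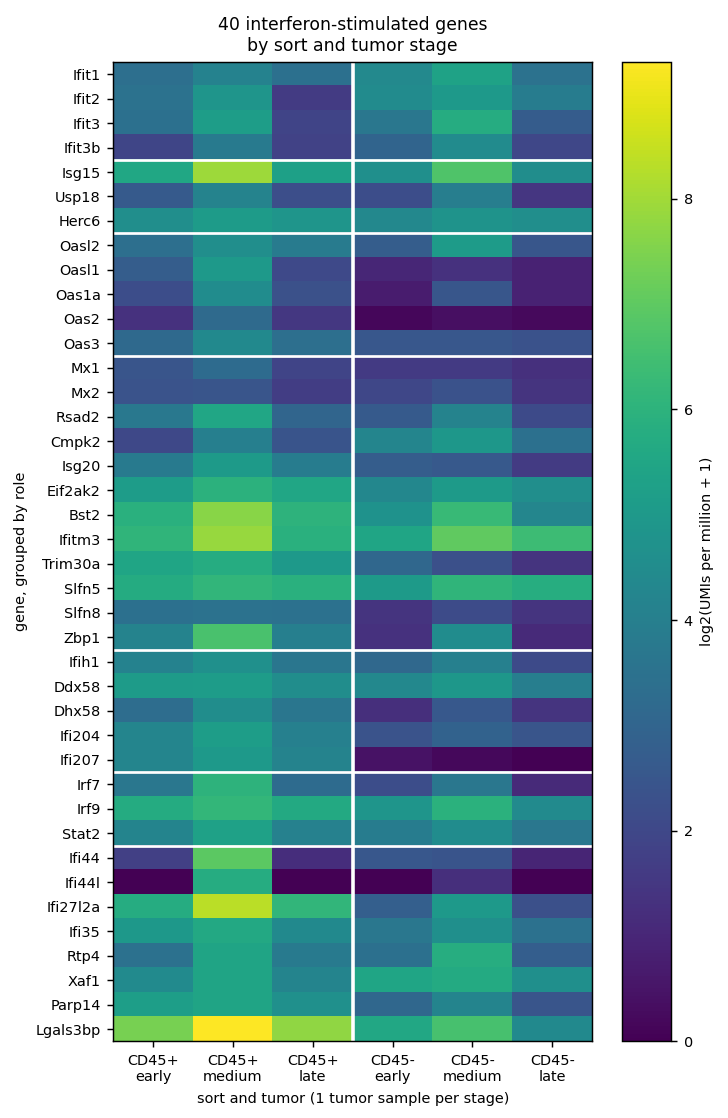
Heat map of the 40 members, grouped by role, in the 6 combinations of sort and tumor, with color giving log2(CPM + 1). The medium tumor holds the highest CD45+ value for 40 of 40 members and the highest CD45- value for 35 of 40.

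In the CD45+ sort all 40 members were highest in the medium tumor, beside 29.3% of all genes with at least 30 UMIs there. In the CD45- sort 35 of 40 were, beside 21.4% of genes. The exceptions were Isg20, Oas3, Ifi44, Ifi207 and Trim30a, whose CD45- value was highest in the early tumor. The values of 14 members did not overlap between the sorts, with all 3 CD45+ values above all 3 CD45- values, where 15.8% of genes did the same. No member lay below in this sense, beside 39.9% of genes.

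Across all 19488 genes tested with edgeR's quasi-likelihood test, tumor as a block and Benjamini-Hochberg adjustment, 20.3% were called higher and 25.7% lower in CD45+ cells at an adjusted p of 0.05. Of the 40 members, 29 were higher, 1 was lower and 10 passed no threshold. The median log2 fold change was 1.57 over the members and -0.05 over all genes. Scaling by TMM (trimmed mean of M-values) set these differences relative to the bulk of genes. Scaling by total UMIs instead shifted the median of all genes by -0.36, gave 24 members higher and 2 lower, and moved the share of all calls that were higher from 44.1% to 28.6%. Without tumor as a block, 15 members were higher and none lower (23 at an unadjusted p of 0.05). The cell mix of the sorts differs by design, and its part in each difference was not tested. Fewer cells of a type and less RNA per cell cannot be told apart in these sums.

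**Figure D2:**
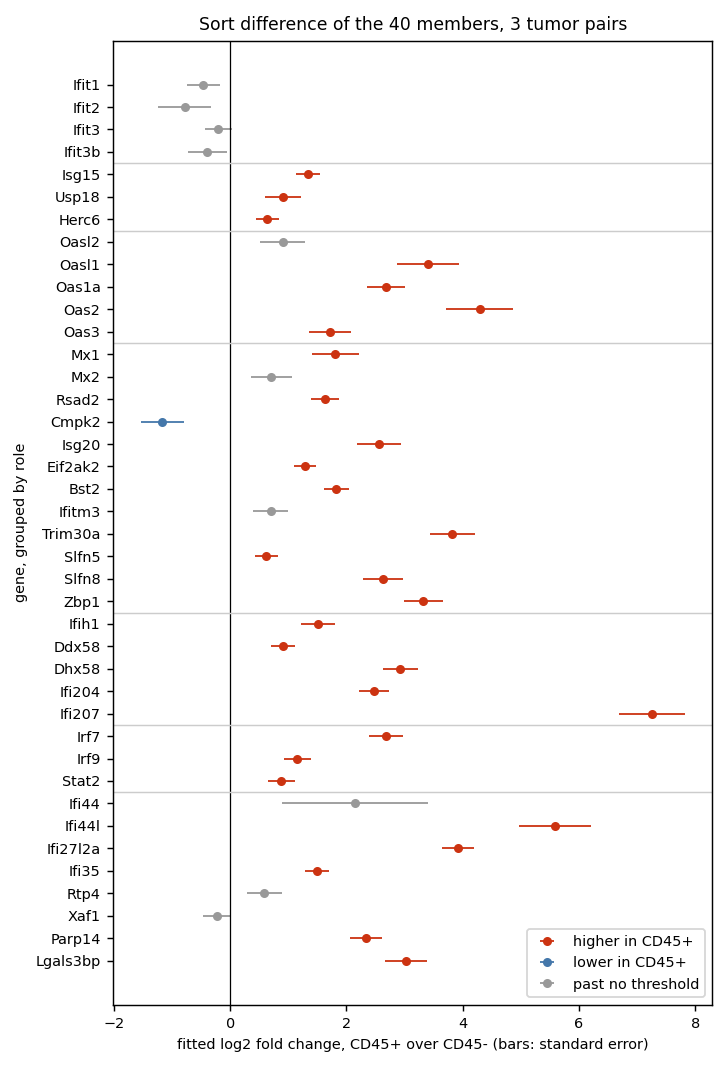
Fitted log2 fold change, CD45+ over CD45-, of each member with its standard error (bars), grouped by role. Red points were higher, blue lower and grey past no threshold in edgeR's test; the 4 IFIT genes sit left of 0 and all 5 sensors right of it.

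The 4 genes of the IFIT family, whose proteins bind viral RNA and block its translation, all had a fitted value below 0, and none passed the threshold. Ifit1 was at 9.62, 16.4 and 9.85 CPM in the CD45+ sorts of the early, medium and late tumors and at 20, 39.6 and 10.4 in the CD45- sorts (log2 fold change -0.46 ± 0.28 SE, adjusted p = 0.218). Ifit2 was at 10.3, 27.6 and 2.04 against 21.2, 31.7 and 14.2 (-0.78 ± 0.46, adjusted p = 0.205). Ifit3b was at 2.87, 13.2 and 2.60 against 7.04, 21.5 and 2.93 (-0.39 ± 0.33, adjusted p = 0.368). Each of these, and Ifit3, was lower in CD45+ cells of all 3 tumors, and the ranges of the sorts overlapped. The negative sign of all 4 held under every alternative scaling, filter and left-out tumor; scaled by total UMIs, Ifit1 passed the threshold as lower (log2 fold change -0.83).

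Members of the ISG15 system, a ubiquitin-like modifier with its ligase and protease, were higher in CD45+ cells, 3 of 3. Isg15, the modifier itself, was at 45.6, 242 and 38.1 CPM in the CD45+ sorts and at 23.6, 107 and 22.4 in the CD45- sorts (log2 fold change 1.34 ± 0.21 SE, adjusted p = 0.00163). Herc6, the mouse ligase, was at 22.9, 33.4 and 27.5 against 19.5, 26.5 and 23.0 (0.64 ± 0.20, adjusted p = 0.0304). Both genes were higher in CD45+ cells in 3 of 3 tumors with overlapping ranges. Usp18, which removes ISG15 and restrains the receptor, had a log2 fold change of 0.91 (adjusted p = 0.0431). The calls of Herc6 and Usp18 were lost under several alternatives, among them DESeq2, scaling by total UMIs and leaving out the medium or the late tumor.

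Of the OAS family, 4 of 5 were higher. Its synthetases sense double-stranded RNA and make the messenger that activates RNase L, while Oasl1 and Oasl2 are OAS-like relatives. Oas2 had the largest difference among them, at 1.48, 8.22 and 1.86 CPM in CD45+ cells and 0.123, 0.305 and 0.189 in CD45- cells (log2 fold change 4.29 ± 0.58 SE, adjusted p = 0.000826). The CD45- values rest on 1, 2 and 2 UMIs, each summed over all libraries of a tumor. Oasl1 was higher by 3.40 ± 0.54 and Oas1a by 2.68 ± 0.33 on the log2 scale. Oas3 was higher by 1.71 ± 0.36. Oasl2 passed no threshold (0.90 ± 0.39, adjusted p = 0.101), and in the medium tumor its CD45- value, 33.5, was above its CD45+ value, 23.1. It passed the threshold without the medium tumor (1.47).

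Among the 12 other effectors 9 were higher, 1 was lower and 2 passed no threshold. Trim30a, a restrainer of innate signaling, was at 43.0, 53.8 and 31.6 CPM in CD45+ cells and at 7.53, 3.81 and 1.61 in CD45- cells (log2 fold change 3.82 ± 0.39 SE, adjusted p = 0.000326), with no overlap. Zbp1, a sensor of Z-form nucleic acid that triggers cell death, was at 16.7, 96.8 and 15.2 against 1.48, 22.0 and 1.13 (3.32 ± 0.34, adjusted p = 0.000289). Bst2, also called tetherin, which holds budding virions at the cell surface, was at 59.5, 199 and 63.5 against 26.0, 75.3 and 18.5 (1.82 ± 0.21, adjusted p = 0.000465). For Zbp1 and Bst2 the medium CD45- value reached above the early and late CD45+ values. Eif2ak2, the kinase PKR that stops translation, was at 34.7, 62.6 and 43.9 against 18.9, 32.5 and 23.1 (1.28 ± 0.19, adjusted p = 0.00129), with no overlap. Slfn5, a Schlafen family member, was at 51.7, 68.9 and 58.7 against 32.8, 67.5 and 55.1 (0.62 ± 0.20, adjusted p = 0.0391), a call that was lost when any 1 tumor was left out. Isg20, an exonuclease, Rsad2, which encodes viperin, Slfn8 and the GTPase Mx1 were higher by 1.63 to 2.63 on the log2 scale, and Mx1 lost its call without the medium tumor (1.41, adjusted p = 0.058). With every deposited cell counted, Isg20 (1.75, adjusted p = 0.136) and Rsad2 (0.91, adjusted p = 0.236) lost theirs.

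The exceptions among the effectors were of both kinds. Ifitm3, a membrane protein that blocks virus fusion, was at 67.4, 230 and 59.3 CPM in CD45+ cells and at 43.3, 131 and 83.0 in CD45- cells (log2 fold change 0.70 ± 0.30 SE, adjusted p = 0.0959). Its order between the sorts turned in the late tumor, and without that tumor it passed the threshold (1.10). Cmpk2, a mitochondrial nucleotide kinase, was lower in CD45+ cells: 3.05, 15.1 and 4.27 against 17.7, 29.4 and 9.82 (-1.17 ± 0.37, adjusted p = 0.0367). It was lower in all 3 tumors, and its call was lost without the early tumor (-0.61) or without the late one (-1.31). Mx2, a dynamin-like GTPase, passed no threshold (0.71 ± 0.35).

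All 5 cytosolic sensors and all 3 transcription factors were higher in CD45+ cells. Ifi207, of the interferon-inducible DNA sensor family, had the largest fitted value of all members. It was at 17.9, 31.3 and 16.7 CPM in CD45+ cells and at 0.370, 0.152 and 0 in CD45- cells, where the sums were 3, 1 and 0 UMIs (log2 fold change 7.26 ± 0.57 SE, adjusted p = 0.00012); at so few UMIs the fitted value depends on the prior count. Ddx58, which encodes the RNA sensor RIG-I, was at 33.5, 34.6 and 22.3 CPM against 19.3, 29.1 and 14.7 (0.91 ± 0.20, adjusted p = 0.00822). The other sensors, Ifih1, Dhx58 and Ifi204, were higher by 1.51, 2.92 and 2.47 on the log2 scale. Irf9, the DNA-binding part of ISGF3, was at 52.2, 70.3 and 49.4 against 27.9, 59.6 and 20.8 (1.16 ± 0.23, adjusted p = 0.00534). Irf7, the factor that amplifies interferon-alpha production, was higher by 2.68 ± 0.30 and Stat2 by 0.88 ± 0.23. Scaled by total UMIs, Ddx58 (0.55, adjusted p = 0.0684) and Stat2 (0.52, adjusted p = 0.0961) lost their calls, and Stat2 also lost its call without the medium tumor (adjusted p = 0.124).

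Of the 8 other members 5 were higher, among them the most abundant. Lgals3bp, a secreted scavenger receptor-like glycoprotein, was at 167, 629 and 218 CPM in CD45+ cells and at 46.8, 94.8 and 20.4 in CD45- cells (log2 fold change 3.02 ± 0.35 SE, adjusted p = 0.000485). Ifi27l2a, a small mitochondrial or nuclear membrane protein, was at 53.0, 325 and 69.1 against 6.05, 30.6 and 3.87 (3.92 ± 0.28, adjusted p = 9.73e-05). Neither gene overlapped between the sorts. Parp14 was higher by 2.34 and Ifi35 by 1.49 on the log2 scale. Xaf1, a proapoptotic binder of XIAP, was at 20.6, 42.7 and 17.3 against 42.8, 51.1 and 23.6 (-0.22 ± 0.24, adjusted p = 0.48), and its sign turned without the early tumor (0.10). Rtp4 passed no threshold (0.59 ± 0.30).

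Ifi44 and Ifi44l, neighboring genes of unsettled function, differed from the rest in that nearly all their UMIs came from 1 tumor. Ifi44 was at 2.41, 122 and 1.30 CPM in CD45+ cells and at 4.69, 4.27 and 0.944 in CD45- cells. Ifi44l was at 0, 52.7 and 0 in CD45+ cells and at 0, 1.37 and 0 in CD45- cells. Ifi44 passed no threshold (log2 fold change 2.15 ± 1.26 SE, adjusted p = 0.208). Ifi44l was called higher (5.58 ± 0.62, adjusted p = 0.0012), but the medium tumor alone holds its UMIs, and DESeq2 did not call it (2.11, adjusted p = 0.744). Without the early tumor Ifi44 was called higher (4.15, adjusted p = 0.0333), and without the medium tumor its value was -0.13.

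The genes upstream of the response were read from a list of the pathway's ligands, receptors, transducers, sensors and brakes. None of the 18 type I interferon ligands reached the counts needed for a test. Ifnb1, interferon-beta, had 14, 6 and 0 UMIs in the CD45+ sorts of the early, medium and late tumors and 1, 0 and 0 in the CD45- sorts. All of the CD45+ ones, 14 and 6, were in microglia-like cells. Both receptor chains and both kinases were higher in CD45+ cells (4 of 4): Ifnar1 by 1.08 ± 0.19, Ifnar2 by 1.46 ± 0.22, Jak1 by 1.52 ± 0.23 and Tyk2 by 1.84 ± 0.23 on the log2 scale. None of these 4 was highest in the medium tumor in either sort. Ifnar2, for example, was at 159, 114 and 124 CPM in CD45+ cells and at 57.2, 59.6 and 68.4 in CD45- cells.

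All 9 signal transducers and interferon regulatory factors were higher in CD45+ cells, including the members Stat2, Irf9 and Irf7. Irf8, a lineage factor of microglia and dendritic cells, was at 526, 505 and 500 CPM in CD45+ cells against 42.5, 44.2 and 11.8 in CD45- cells (log2 fold change 4.52 ± 0.45 SE, adjusted p = 0.00031). Irf1, a main factor of the interferon-gamma response, was at 188, 132 and 89.2 against 32.3, 81.3 and 23.5 (2.09 ± 0.35, adjusted p = 0.00262). Irf8 stayed within a narrow range across the CD45+ sorts, and Irf1 was highest in the early one. Of 13 sensors and adaptors 12 were tested and 10 were higher, with Tmem173, which encodes STING, at 283, 118 and 177 against 21.4, 9.60 and 8.12 (4.29 ± 0.27). Mavs and Tbk1 passed no threshold. Of 10 negative regulators 8 were higher, Socs3 and Rnaseh2a being the others. These lists share Usp18, Trim30a, Ddx58, Ifih1 and Dhx58 with the members.

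Interferon-gamma, which shares many targets, was also examined. Ifng had 216, 416 and 34 UMIs in the CD45+ sorts and 0 in each CD45- sort. T or NK-like cells held 165, 311 and 29 of these, 345, 570 and 133 CPM, with Ifng seen in 16.9%, 21.7% and 6.06% of the cells. It was highest in the medium tumor and lowest in the late one. Ifngr1 and Ifngr2, its receptor chains, were higher in CD45+ cells by 2.76 ± 0.26 and 2.64 ± 0.22 on the log2 scale. How much of any member's level is due to either interferon was not tested.

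To place the members in cell types, cells were clustered without 89 genes, the members and the pathway genes that are not markers, and clusters were named from marker genes. Other genes that follow the members, such as Gbp2 and Iigp1, were not left out, nor was Cxcl9, which leads some groups. The level of a group is therefore not independent of how the group was drawn. Leukocyte classes were read in the CD45+ sort and the others in the CD45- sort. Levels by class describe these clusters, with exact 95% Poisson intervals that cover counting error only. The highest sums were in myeloid classes and the lowest in oligodendrocyte-like cells. An unnamed CD45+ group led by Cxcl9 and Ccl8 stood at 4659 CPM in the early tumor (23 cells) and 4830 in the medium tumor (686 cells). Plasmacytoid dendritic-like cells, seen in numbers in the medium tumor alone (44 cells), stood at 4630. Bst2, a known surface marker of these cells, gave 1902 of that level, and Trim30a, Ifi27l2a, Irf7 and Ifi44 gave 440, 352, 253 and 231.

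Macrophage or monocyte-like cells stood at 4424, 4856 and 1203 CPM, in the order early, medium, late. Their make-up differed: a group led by Plac8, Cxcl9 and Ly6i was 78.2% and 85.0% of the class in the early and medium tumors and 6.19% in the late one. A group led by Retnla, Rnase2a and Arg1 was 93.8% of the late class. The first group stood at 5212, 5218 and 3505, and the second at 3244 in the medium and 1073 in the late tumor. The leading members of the class by UMIs pooled over the tumors were Ifitm3 at 1192, 919 and 70.2, Lgals3bp at 374, 526 and 384 and Ifi27l2a at 406, 636 and 109. Isg15 was at 283, 356 and 31.2 and Bst2 at 155, 234 and 93.6. Of these 5, all but Lgals3bp were lowest in the late tumor, where Ifitm3 lay below Lgals3bp, Ifi27l2a and Bst2. Late over early was -1.88 for the sum on the log2 scale (-2.00 to -1.76). Of 17 members with at least 30 UMIs over both tumors, 12 were at least 2-fold lower, beside 10.5% of genes so measured. Only 1, Irf9 (1.72), was at least 2-fold higher, beside 16.6%.

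**Figure D3:**
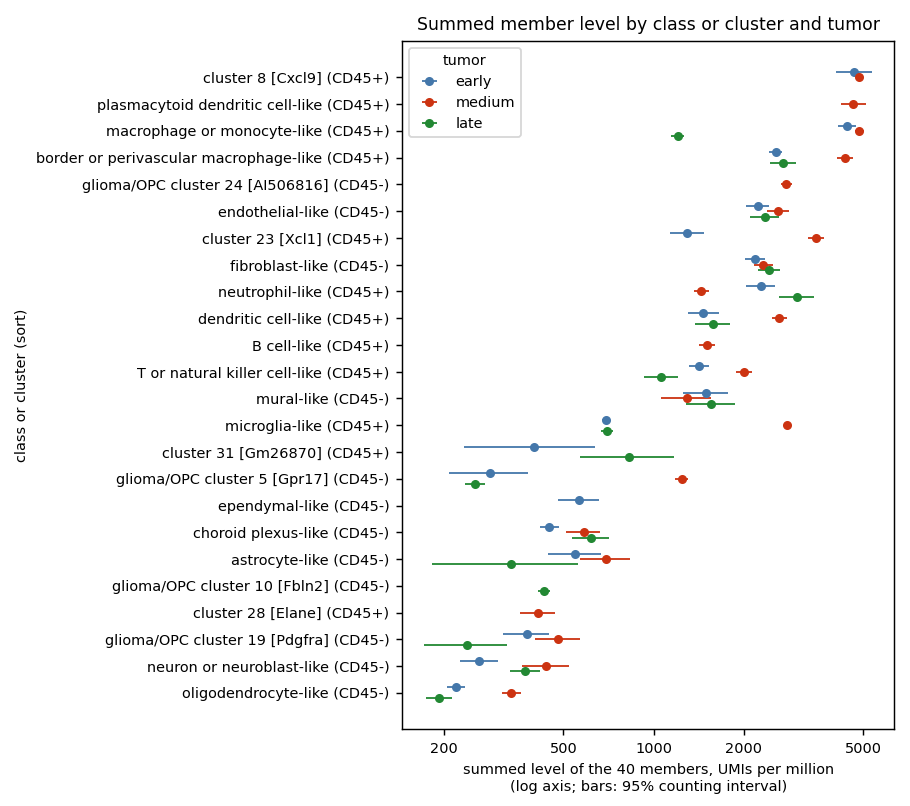
Summed level of the 40 members in CPM (log axis) by class or cluster, 1 point per tumor with an exact 95% counting interval. Microglia-like cells sit at 691 and 699 in the early and late tumors and at 2794 in the medium tumor, while endothelial-like and fibroblast-like cells stay between 2180 and 2606 in all 3.

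Border or perivascular macrophage-like cells stood at 2552, 4355 and 2701, with Ifitm3, Lgals3bp and Ifi27l2a leading by UMIs pooled over the tumors. Dendritic-like cells stood at 1465, 2624 and 1575, T or NK-like cells at 1413, 1998 and 1058, and B-like cells at 1506 in the medium tumor. Neutrophil-like cells, at 2272, 1440 and 2996, were lowest in the medium tumor. Microglia-like cells, the most numerous CD45+ class, stood at 691 (interval 674 to 709), 2794 (2737 to 2851) and 699 (669 to 730). In the early tumor macrophage or monocyte-like cells were 6.40 times higher than microglia-like cells, and in the medium and late tumors 1.74 and 1.72 times. The mean log2 ratio was 1.42 ± 1.09 (SD, n = 3), with ranges that overlapped across tumors.

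In the CD45- sort the vessel and stromal classes were high in all 3 tumors. Endothelial-like cells stood at 2226, 2606 and 2347 CPM and fibroblast-like cells at 2180, 2323 and 2426, which left the order between these 2 classes open across tumors. Their leading member by UMIs pooled over the tumors was Ifitm3, at 342, 395 and 564 in endothelial-like and at 394, 756 and 891 in fibroblast-like cells. By the same rank Slfn5 came next in endothelial-like cells, at 214, 414 and 384, and in the medium tumor it was above Ifitm3. The level of both classes was above that of microglia-like cells in the early and late tumors and below it in the medium tumor. Mural-like cells stood at 1490, 1287 and 1552. Astrocyte-like cells at 548, 691 and 334 and choroid plexus-like cells at 449, 584 and 616 were lower, and neuron or neuroblast-like cells stood at 262, 439 and 373.

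The IFIT genes were at higher levels in stromal than in microglia-like cells. Together they were at 407, 135 and 200 CPM in fibroblast-like cells and at 176, 151 and 158 in endothelial-like cells. Microglia-like cells had 17.1, 63.1 and 14.6, and oligodendrocyte-like cells 42.9, 66.0 and 29.4. In every tumor the 2 stromal classes were above microglia-like cells. Ifit1 alone was at 174, 77.7 and 42.6 in fibroblast-like cells and at 6.04, 7.85 and 8.14 in microglia-like cells. Cmpk2 showed the same order, with 103, 47.1 and 45.1 in endothelial-like and 0.232, 3.62 and 1.36 in microglia-like cells. Xaf1 was the leading member of oligodendrocyte-like cells, at 69.5, 63.7 and 53.4, beside 18.1, 36.5 and 18.3 in microglia-like cells. The order of the IFIT genes did not hold for all leukocyte classes. Together they were at 251, 96.2 and 14.8 CPM in macrophage or monocyte-like and at 131, 65.8 and 53.3 in neutrophil-like cells. The Cxcl9 and Ccl8-led group had 413 and 101 in the early and medium tumors. Dendritic-like cells had 51.2, 19.1 and 0.

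Clusters with glioma or oligodendrocyte progenitor markers differed widely. A Gpr17-led cluster stood at 285, 1240 and 253 CPM. Human EGFR UMIs were seen in 0 of its 55 early cells and in 82.9% and 81.4% of its medium and late cells, so the early value is not one of cells with detected transgene. A cluster led by AI506816 and Apobec3, found only in the medium tumor, had 126 of its 197 cells in the CD45- sort. It stood at 2769 there, with human EGFR UMIs in 86.5% of the CD45- cells. An Fbln2-led cluster of the late tumor (89.2%) stood at 431, and a progenitor cluster with few human EGFR cells (0%, 1.22% and 11.9%) at 377, 479 and 239. In the cluster at 2769, Isg15 was at 375, Ifitm3 at 334, Ifit3 at 207, Bst2 at 185 and Ifi27l2a at 148, and the 4 IFIT genes together at 465. Oligodendrocyte-like cells, the lowest class, stood at 219, 335 and 193.

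The medium CD45+ sort differed both in the shares of the clustered groups and in levels within them. Genes that follow the members took part in the clustering, so these shares and levels are not independent. The Cxcl9 and Ccl8-led group held 203 of 10274 member UMIs in the early CD45+ sort (1.98%) and 7058 of 28603 in the medium one (24.7%), at similar levels. Microglia-like cells held 57.9%, 32.4% and 40.5% of the member UMIs of the early, medium and late CD45+ sorts. Levels within a class were compared as ratios between tumors. With 1 tumor per stage these ratios compare tumors and have no test. Of 15 classes or clusters with a value in all 3 tumors, 11 were highest in the medium one. Fibroblast-like, neutrophil-like, mural-like and choroid plexus-like cells were highest in the late one. These orders are by value alone. The counting intervals of the highest and the next tumor overlapped in endothelial-like, astrocyte-like, neuron or neuroblast-like and macrophage or monocyte-like cells. They also overlapped in the progenitor cluster with few human EGFR cells and in fibroblast-like, mural-like and choroid plexus-like cells. The late neutrophil-like and mural-like values rest on 27 cells each.

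Microglia-like cells had the largest ratio of medium over early among the leukocyte classes with at least 50 cells in both tumors. The summed level was 4.04 times higher in the medium than in the early tumor, a log2 ratio of 2.01 (1.97 to 2.06), while late over early was 0.02 (-0.06 to 0.09). Of 38 members with at least 30 UMIs over the compared tumors, 26 were at least 2-fold higher in the medium tumor, beside 5.15% of all genes so measured, and 0 were at least 2-fold lower, beside 6.96%. Some members, Ifi44l among them, passed this filter through the medium tumor alone. The median log2 ratio was 1.67 over the members and -0.13 over all genes. In late over early 1 of 30 members, Oas3, was at least 2-fold higher (1.20) and 1, Ifit2, at least 2-fold lower (-2.36), beside 3.95% and 2.75% of genes. The 3 runs gave medium levels of 2661 to 2872 CPM and early and late levels of 665 to 773. Without Lgals3bp, Ifitm3 and Ifi27l2a the log2 ratio of medium over early was 1.61.

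**Figure D4:**
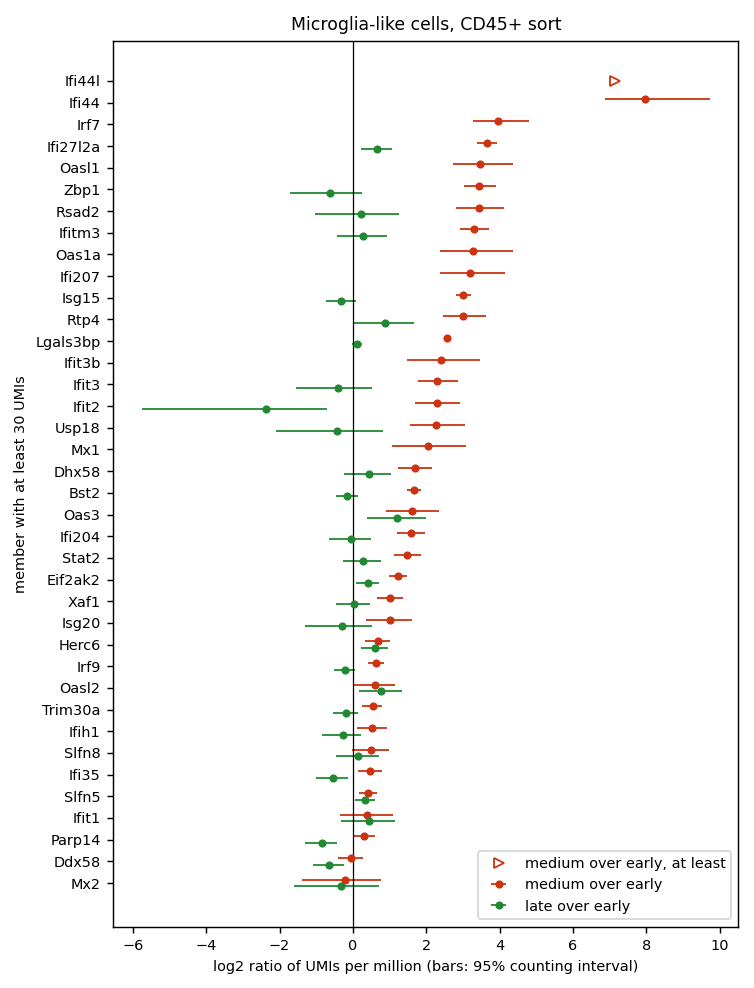
Log2 ratio of each member's CPM in microglia-like cells, medium over early and late over early, with 95% counting intervals; the open triangle for Ifi44l is a lower bound. Medium over early lies above 0 for 36 of 38 measured members, and late over early scatters around 0.

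The members did not share 1 ratio. The 5 highest were Ifi44l, Ifi44, Irf7, Ifi27l2a and Oasl1. Ifi44 had 5, 531 and 0 UMIs in the early, medium and late microglia-like cells, seen in 5 of 4136 cells, in 252 of 1525 (16.5%) and in 0 of 1243, which allows a share of cells with a UMI of up to 0.241% and does not limit the share that expresses the gene. In the same medium CD45+ libraries Ifi44 was seen in 3.56% of T or NK-like, 4.82% of neutrophil-like, 5.67% of B-like and 2.86% of the cells of an unnamed Elane-led cluster, at median depths of 1833, 2403, 2719 and 3115 UMIs beside 1875 in microglia-like cells. Free RNA in these libraries was not measured. Ifi44l had 0, 164 and 0 UMIs, so that its medium level was at least 142-fold the early one and at least 48.6-fold the late one, taking 3 counts per tumor's sum as the floor for a count of 0. Irf7 was at 2.09, 33.5 and 2.71 CPM, a log2 ratio of medium over early of 3.97. Ifi27l2a was at 16.0, 203 and 25.1 (3.66), and Oasl1 had a ratio of 3.47.

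Other abundant members were lower in rank but still far apart between tumors. Lgals3bp was at 167, 985 and 180 CPM, with a log2 ratio of medium over early of 2.56. Isg15 was at 28.0, 226 and 22.4 (3.01), and Bst2 at 46.8, 148 and 41.7 (1.66). In each of these 3 genes the early and late values lay close together and the medium value apart. The lowest ratios were those of Mx2 (-0.21), Ddx58 (-0.06), Parp14 (0.31), Ifit1 (0.39) and Slfn5 (0.41). Ifit1 was at 0.39 (-0.36 to 1.08), while Ifit2, Ifit3 and Ifit3b were at 2.29, 2.30 and 2.40; reads can be split among these relatives and this difference was not tested.

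Ifi44 and Ifi44l showed the same contrast outside microglia-like cells. In the medium tumor Ifi44l was at 114 in macrophage or monocyte-like, 75.5 in border macrophage-like, 52.5 in dendritic-like, 118 in Cxcl9-led and 16.1 in neutrophil-like cells. It had 0 UMIs in every class of the early and late tumors, and 0 in the endothelial-like, fibroblast-like, mural-like and oligodendrocyte-like cells of the medium tumor. Ifi44 was at 156 in medium and at 0 and 5.46 in early and late macrophage or monocyte-like cells. In endothelial-like cells the order was another: Ifi44 was at 51.4, 14.1 and 7.52, on 12, 3 and 1 UMIs. The animals were of mixed background, and strain, tumor and stage cannot be told apart here.

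The pattern was also present within microglia clusters, although their shares moved too. A cluster led by Cxcl13 and Spp1 was 1.43%, 46.0% and 15.5% of microglia-like cells and stood at 1516, 3989 and 791 CPM. A Tnf and Il1a-led cluster stood at 577, 970 and 624, and 2 clusters led by P2ry12 and P2ry13 at 677, 1239 and 687 and at 536, 1431 and 711. One led by P2ry12 and Crybb1 stood at 1339 and 1638 in the early and medium tumors. Medium over early was 1.68 to 2.67-fold in the first 4 and 1.22-fold in the last, below the 4.04-fold of the whole class. In the Cxcl13 and Spp1-led cluster the late level was below the early one (0.522-fold).

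Among the Gpr17-led cells the medium and late tumors, where most held human EGFR UMIs, were compared. Medium over late was 2.29 on the log2 scale (2.16 to 2.42). Of 22 members with at least 30 UMIs over both tumors, 17 were at least 2-fold higher in the medium tumor, beside 3.45% of genes so measured. Several passed this filter through the medium tumor alone or nearly so, and their direction was then fixed in part by the filter. Ifit3 had 106 UMIs in medium and 0 in late cells, Lgals3bp 64 and 0, Ifi35 63 and 1, Bst2 95 and 2, and Ifit3b 36 and 2. Slfn5 (0.07) and Ifit2 (0.64) had the smallest ratios. Isg15 was at 116 CPM in medium and 9.07 in late cells, and Irf9 at 110 and 20.3.

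Other classes showed smaller differences or the opposite one. Medium over early was 1.43 in the Xcl1 and Ccl5-led unnamed group, 0.84 in dendritic-like, 0.77 in border macrophage-like, 0.61 in oligodendrocyte-like, 0.50 in T or NK-like, 0.23 in endothelial-like, 0.13 in macrophage or monocyte-like and 0.09 in fibroblast-like cells on the log2 scale. Neutrophil-like cells had -0.66 (-0.84 to -0.48). Of 16 members with at least 30 UMIs over both tumors, 7 were at least 2-fold lower and 0 at least 2-fold higher, beside 16.7% and 13% of genes so measured. Ifi27l2a (-2.28), Rtp4 (-2.10) and Trim30a (-1.99) had the lowest ratios there, on 52 early and 249 medium cells. In T or NK-like cells Ifi27l2a was the member with the largest ratio (1.45) and Zbp1 the one with the smallest (-1.03). In fibroblast-like cells Ifit3 (-1.91) and Ifit1 (-1.15) were lower and Ifitm3 (0.94) higher. Among oligodendrocyte-like cells, 1 of 3 clusters, led by Mal and Cldn11, stood at 208, 505 and 192, and the others at 222, 195 and 227 and at 228, 243 and 171.

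Whether the medium level came from all microglia-like cells or from some was examined at matched depth. Each cell was thinned to 1000 UMIs, cells with fewer were left out (96, 1 and 55 in the early, medium and late tumors), and a cell with at least 5 member UMIs was called high. High cells were 57 of 4040 (1.41%, exact binomial 95% interval 1.07 to 1.82) in the early, 287 of 1524 (18.8%, 16.9 to 20.9) in the medium and 10 of 1188 (0.842%, 0.404 to 1.54) in the late tumor. The medium share was 13.3 times the early one (10.1 to 17.6). This interval and the binomial ones treat the cells of 1 tumor as independent draws. They do not cover the spread between tumors, and the difference between stages was not tested. Without Lgals3bp, Ifitm3 and Ifi27l2a the shares were 0.743%, 6.36% and 0.421%, a ratio of medium over early of 8.57, and at a threshold of 3 UMIs the ratio was 6.24. Without thinning the shares were 6.43%, 42.0% and 7.32%. In oligodendrocyte-like cells, which come from the CD45- libraries, the thinned shares were 0.148%, 1.08% and 0%, the last from 0 of 679 cells, which allows up to 0.442%, at median depths of 2257, 2932.5 and 2539.5 UMIs before thinning beside 1955.5, 1875 and 1974 in microglia-like cells. Among Elane-led cells of the medium CD45+ libraries 0 of 104 were high, which allows up to 2.88%. Both groups have low summed levels, and high cells were not particular to microglia-like cells. Macrophage or monocyte-like cells had 33.8%, 44.8% and 4.43%, and endothelial-like cells 13.1%, 17.7% and 21.4%. In the medium tumor the Cxcl9 and Ccl8-led group had 42.9% and border macrophage-like cells 39.3%. Dendritic-like, T or NK-like, neutrophil-like and B-like cells were lower there than microglia-like cells, at 14.8%, 10.7%, 8.06% and 7.22%.

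**Figure D5:**
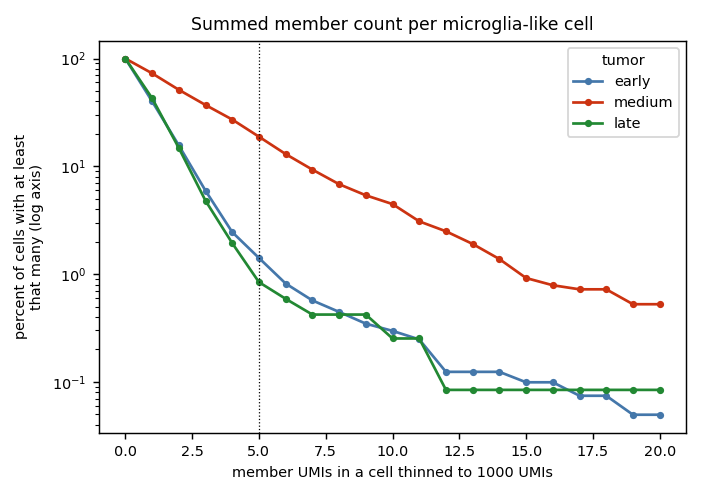
Percent of microglia-like cells (log axis) with at least the given number of member UMIs after thinning to 1000 UMIs, 1 line per tumor; the last point is 20 or more and the dotted line marks 5. The medium line lies above the others at every count, at 18.8% against 1.41% and 0.842% at 5 UMIs.

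The distribution was uneven in all tumors. The variance of the member count was 2.42, 4.10 and 2.12 times its mean, where independent counting at 1 common level would give about equal values. In the medium tumor 27.0% of cells had no member UMI, beside 59.9% and 57.1% in the early and late ones. The Cxcl13 and Spp1-led cluster held most of the medium high cells, 231 of 702 (32.9%), and the other 4 with at least 50 cells had 5.13% to 8.05%. High cells in the early and medium tumors had a median UMI count near that of the rest (1981 against 1974 and 1925 against 1870). Irf1, which did not enter the count, was at 0.750, 0.613 and 2.89 times its level in the other cells. The late values rest on 10 cells. All 6 Ifnb1 UMIs of the medium microglia-like cells were in high cells, and none of the 14 of the early ones were. High cells were only 1.41% of the early cells, so 14 UMIs are too few to set the tumors apart. The number of cells that held these UMIs is not given here.

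Among members, those whose level followed the sum most closely over 50 sums by class, sort and tumor were Isg15 (Pearson's r 0.94) and Bst2 (0.88), and those least were Cmpk2 (0.13) and Ifit2 (0.15). The sums share libraries and tumors, and members are part of the sum, so these values describe the profile only.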

How the data were processed

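The authors mapped inDrop reads to the mouse GRCm38 transcriptome with RapMap in bcbio-nextgen and deposited whole-number UMI counts per gene and cell, 50262 genes by 20811 cells, with a table that gives the sort, stage and run of each library, to which cells were matched by the library in their column names. Their methods describe removal of ambient RNA and doublets, and whether this preceded the deposited counts is not given in the sources used here. Of the identifiers 50153 were paired with a symbol. The 24 libraries, 4 per sort and tumor, came from 3 sequencing runs.

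Cells with at least 500 UMIs, 500 genes and at most 20% mitochondrial UMIs were kept, less 113 doublets called by Scrublet (expected rate 6%; 0.635% of 17786 cells tested, low beside that rate). Totals were 5381839 to 10808099 UMIs per sort and tumor. Clustering used scanpy 1.11.5 and leidenalg 0.10.2 (2000 variable genes, 40 components, 20 neighbours, resolution 1), which gave 34 clusters, and 4 with 1122 cells stayed unnamed. Names rest on at least 3 markers and are rebuilt, not the authors' own. Barcodes were also counted once when libraries of a sort and tumor shared them; 88.4% of the 974 shared barcodes fell in 1 class or cluster.

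Counts were summed per tumor and sort and fitted over all genes with edgeR 4.0.16 (TMM, filterByExpr, robust quasi-likelihood test, two-sided, Benjamini-Hochberg threshold 0.05, 2 residual degrees of freedom), with tumor as a block because both sorts of a tumor come from the same animals. Deviations from the sort means correlated at 0.37, 0.27 and 0.28 within tumors and at -0.25 to 0.01 between them. The p-values measure the spread over 3 tumors. Ratios between tumors carry counting intervals at the 95% level, and since UMIs from 1 cell are not independent these cover counting error only. DESeq2 1.42.0 and other scalings, filters, blocks, cell selections and left-out samples were alternatives.

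The members and lists were chosen with earlier results of these data known. The genes given with values in every tumor are the 12 members with the highest mean level, the 5 largest and 5 smallest fitted differences, the 5 members with the most UMIs in a class, and the 5 highest and lowest stage ratios among members with at least 30 UMIs; others were named after their values were seen. Promoter windows came from RefSeq. Some items of the study are not reported here.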

Additional observations from a re-analysis of the deposited data

Results flagged for a closer look

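The summed level of the members moved in opposite directions between the medium and early tumors in 2 leukocyte classes. The log2 ratio of medium over early was 2.01 in microglia-like cells and -0.66 in neutrophil-like cells. With 1 tumor per stage this difference was not tested, and the neutrophil value rests on 52 early and 249 medium cells.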

How the results depend on the processing

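With no replicate block for the tumor, 15 members were higher and 0 lower in CD45+ cells, 23 of 39 at an unadjusted p of 0.05. Without TMM factors 2 members, Cmpk2 and Ifit1, were lower. Leaving out 1 tumor gave 24 to 28 members higher and 0 to 1 lower: without the early tumor Usp18, Cmpk2 and Slfn5 lost their calls, without the medium one Usp18, Mx1, Stat2, Herc6 and Slfn5, and without the late one Usp18, Cmpk2, Herc6 and Slfn5. Ifi44l could not be tested without the medium tumor. The other alternatives gave 26 to 29 members higher and 1 lower. For 20 single members, 237 values were computed; 212 kept direction and side of the threshold, 22 lost the call, 2 gained one (Ifitm3 without the late tumor, 1.10, and Ifit1 without TMM factors, -0.83) and 1 changed sign (Xaf1, 0.10 without the early tumor, and as low as -0.44 without 1 tumor).

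Without Lgals3bp, Ifitm3 and Ifi27l2a the mean log2 ratio of the sum between sorts was 0.88. The microglia log2 ratio of medium over early was 1.80, 2.11 and 1.92 in runs 1, 2 and 3, 2.17 with classes called per cell, 1.61 without those 3 members and 1.92 thinned to 1000 UMIs, and 1.98 to 2.06 without 1 library. Late over early was -0.19 and 0.10 in runs 1 and 2 alone, and -0.02 to 0.06 without 1 library. The share of high cells in the medium tumor over that in the early one was 6.24 at a threshold of 3, 8.57 without those 3 members, 6.54 without thinning, 18.5 with classes called per cell and 12.1 to 17.1 without 1 library. Late over early, 0.597, was 0.324 to 0.845 without 1 library and rests on 10 late cells. With shared barcodes counted once, an alternative chosen after seeing the data, medium over early was 2.03 for the level and 13.4 for the share. A run with no high early cell gives no ratio of shares. The causes of these shifts were not tested. Depth limits single members in small classes, where many hold fewer than 30 UMIs.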

Other observations

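Genes outside the member list were ranked by how closely their level followed the summed members. Over 50 sums by class, sort and tumor and 16515 genes, the highest Pearson correlations were those of H2-T23 (0.87), Psme2b (0.87), Oas1g (0.87), Psme2 (0.87), Tapbp (0.84), Gbp2 (0.83), Iigp1 (0.83), Gbp3 (0.83), B2m (0.82) and H2-K1 (0.81). Psme2 encodes a subunit of the proteasome activator, Tapbp the chaperone tapasin, and B2m the light chain of class I molecules. Psme2b is a near copy of Psme2, and Oas1g a relative of the member Oas1a, so reads may be split between them. The sums share libraries and tumors, and no test was made.

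In microglia-like cells with a high member count, the 10 genes outside the list with the highest ratio to the other microglia-like cells, by the median over tumors, were Ifi211, Ifi205, Iigp1, Ifi209, Gm17167, Gm43302, C3, Tipin, Cd36 and Gm26716. Iigp1, a GTPase that attacks parasite vacuoles and is known as a target of interferon-gamma, had the most UMIs of these in high cells (195) and was 13.2, 2.99 and 15.5 times higher in the early, medium and late tumors. C3, complement component 3, was 15.5 and 6.65 times higher in the early and medium tumors and had 0 UMIs in the 10 late high cells. Ifi211, Ifi205 and Ifi209 are relatives of the members Ifi204 and Ifi207 and had 31, 25 and 31 UMIs in high cells. The ranks of several rest on few UMIs or cells: Ifi211 was 95.1-fold higher in the early tumor on 4 UMIs and 5.41-fold in the medium one, and in the medium tumor, which holds most high cells, Tipin was at 0.939 and Gm17167 at 1.97 times the level in the other cells.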
